A study of Mus musculus with 7 samples.

Results

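The genes described here are 30 genes listed for fluid secretion by the pancreatic duct. They cover anion channels and exchangers, bicarbonate and chloride loaders, carbonic anhydrases, aquaporins and subunits of the sodium-potassium pump. Also among them are potassium and sodium channels, sodium-proton exchangers and their scaffold, the secretin receptor and an organic cation transporter. They were taken by symbol from a list of duct transport genes, and all 30 were found among the 54446 genes of the count table. Polyadenylated RNA was sequenced from spheroids, rounded structures that pancreatic epithelial cells form in 3-dimensional culture. The donors were wild-type C57BL/6J mice, either untreated (3 libraries, untreated 01 to 03) or at some time after caerulein, a secretagogue used to bring on acute pancreatitis (4 libraries, post-caerulein 01 to 04). The labels give no age, dose or interval since caerulein. They also do not state whether libraries of a group are separate animals or cultures, and p-values here reflect library-to-library spread that may be partly technical. Both groups grew in the same medium, which held 100 ng/ml cholera toxin, 20 ng/ml epidermal growth factor, 0.5 µM hydrocortisone and 5 nM triiodothyronine. Cholera toxin raises cyclic AMP, the second messenger of the secretin receptor, and it was present in all 7 libraries.

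Duct cells secrete a fluid rich in bicarbonate that carries digestive enzymes to the gut and neutralises gastric acid. Bicarbonate is formed inside the cell by carbonic anhydrases or brought in across the basolateral membrane by sodium bicarbonate cotransporters, and it leaves across the apical membrane through the CFTR channel and SLC26 exchangers, with water following through aquaporins. Secretin opens CFTR through cyclic AMP, while calcium opens the ANO1 chloride channel, and the sodium-potassium pump together with potassium channels keeps up the voltage that drives anions out.

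The libraries held 34783738 to 46744497 assigned reads. Levels are given as CPM, reads of a gene scaled to the library's total, or as TPM, which also corrects for transcript length. Sums of 10 duct and epithelial markers ran from 13401 to 14548 CPM without and from 13216 to 20173 CPM after caerulein, led by Krt18 (6054 TPM, mean of 7 libraries) and Krt8 (4734 TPM), both keratins of simple epithelium. Sums of 9 acinar markers ran from 1.56 to 2.29 CPM without and from 3.16 to 12.4 CPM after caerulein (led by Ctrb1, 7.11 TPM, and Cela1, 1.19 TPM), and sums of 8 islet markers from 0.0248 to 0.40 and from 0.462 to 4.55 CPM (led by Iapp, 1.12 TPM, and Chga, 1.10 TPM, with Ppy at 0 throughout). Ctrb1, at 2, 2 and 10 reads in untreated libraries, rose in the block fit described below (log2 fold change 5.59 ± 0.89 (SE), edgeR adjusted p = 0.0378) without overlap of the groups. Of the islet markers, 5 had no reads in any untreated library. Among these, Ins2 had 8, 11, 20 and 4 reads in post-caerulein 01 to 04. Sums of 7 fibroblast and stellate markers were 0.272, 0.127 and 21.1 CPM in untreated 01, 02 and 03 and 2.97 to 7.27 CPM after caerulein, so they were higher after caerulein within the larger block and lower within the smaller one (led by Col1a1, 1.02 TPM, and Col1a2, 0.687 TPM). Of the leukocyte markers, the pan-leukocyte gene Ptprc did not exceed 0.105 CPM and Csf1r averaged 0.421 TPM, whereas Cd68, also a lysosomal gene of other cells, averaged 67.3 TPM. The part of these cell types in the results was not tested. On the leading principal component (51.7% of the variance) untreated 03 and post-caerulein 04 lay at 70.4 and 58.4. The other 5 libraries lay lower and were themselves split by group. Untreated 01 and 02 were at -67.7 and -63.4, and post-caerulein 01, 02 and 03 at -10.8, 8.06 and 5.03. Untreated 01 and 02 (biological coefficient of variation 8.46%) and post-caerulein 02 and 03 (5.73%) were far closer than any other pair (22.0% or more), although they differed by more than sampling noise. A refit showed that the authors' deposited table was made with a block term that sets untreated 03 and post-caerulein 04 (called the smaller block here) against the other 5 libraries (the larger block). No label says what the block stands for. Group differences are therefore given from edgeR's quasi-likelihood test with the group alone and with this block, as log2 fold changes of post-caerulein over untreated with their standard errors and Benjamini-Hochberg adjusted p-values. A gene was called at an adjusted p under 0.05. Where no other fit is named, an estimate beside an adjusted p is the log2 fold change from the fit with the block, with its SE.

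Levels per transcript length differed widely among the 30 genes. Of these, 12 had a mean of at least 100 TPM over the 7 libraries, 7 lay between 10 and 100 TPM, 5 between 1 and 10 TPM and 6 under 1 TPM. Atp1b1, the beta 1 subunit of the sodium-potassium pump, was the most abundant at 1189 TPM (range 655 to 2129). It was followed by the calcium-activated chloride channel Ano1 at 356 TPM (235 to 515) and by the cytosolic carbonic anhydrase Car2 at 289.7 TPM (71.2 to 582), whose ranges overlapped. The ranges of the next 6 genes overlapped as well: Slc4a11 (209 TPM), Slc9a3r1 (196 TPM), Kcnq1 (170.2 TPM), Slc4a4 (158 TPM), Scnn1a (147 TPM) and Kcnn4 (131 TPM). Cftr, the anion channel that cyclic AMP activates, was only the 20th of the 30 at 4.66 TPM, with a range of 0.322 to 13.3 TPM.

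Too low for a test were 4 genes. The secretin receptor Sctr had 0, 0 and 7 reads in the untreated libraries and none in any post-caerulein library, so its 7 reads all came from untreated 03. Slc26a3, an apical chloride-bicarbonate exchanger, had 0, 1 and 0 reads in untreated and 0, 2, 2 and 1 reads in post-caerulein libraries. Aqp8, a water channel, had 1, 4 and 6 reads in untreated and 0, 1, 1 and 4 reads in post-caerulein libraries. For Slc9a3, an apical sodium-proton exchanger, the reads were 0, 3 and 4 and 1, 2, 2 and 0. A count of 0 allows 3 reads, or 0.0631 to 0.0841 CPM depending on the library. The receptor for secretin, the main hormone of duct secretion, was thus near or under the detection limit in both groups.

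**Figure D1:**
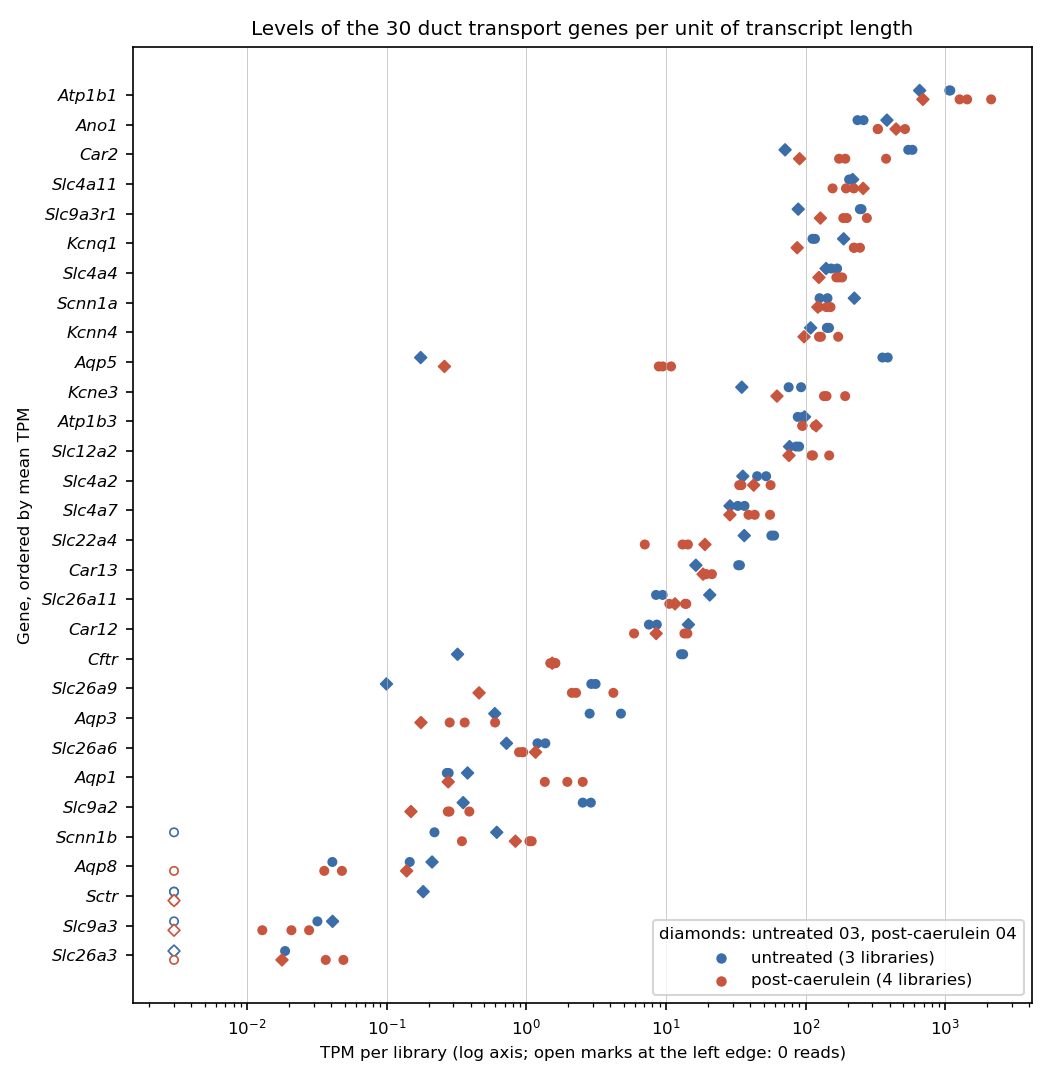
Level of each of the 30 genes in TPM (log axis), ordered by the mean of the 7 libraries, with 1 mark per library, blue for untreated and red for post-caerulein, diamonds for untreated 03 and post-caerulein 04, and open marks at the left edge for 0 reads. Atp1b1 lies at the top at a mean of 1189 TPM, and Aqp5 has the widest spread among the abundant genes, from 0.175 to 387 TPM.

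The promoters of 3 of these genes are shown because their transcripts carried the main patterns below: Cftr, whose difference turned direction between the blocks, and Aqp3 and Slc22a4, which were lower after caerulein in both blocks. Each sequence is the 250 bases before the RefSeq start on GRCm38.p6, written 5′ to 3′ on the gene's strand. Capitals mark the GC box GGGCGG and its reverse complement CCGCCC, the E-box CACGTG and the TATA box TATAAA.
Cftr, chr6:18170437-18170686, plus strand: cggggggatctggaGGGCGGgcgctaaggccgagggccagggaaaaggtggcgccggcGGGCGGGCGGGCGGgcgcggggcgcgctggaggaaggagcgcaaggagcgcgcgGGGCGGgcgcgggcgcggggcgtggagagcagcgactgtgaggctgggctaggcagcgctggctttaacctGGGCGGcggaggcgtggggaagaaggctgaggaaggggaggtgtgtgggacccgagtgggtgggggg
Aqp3, chr4:41098184-41098433, minus strand: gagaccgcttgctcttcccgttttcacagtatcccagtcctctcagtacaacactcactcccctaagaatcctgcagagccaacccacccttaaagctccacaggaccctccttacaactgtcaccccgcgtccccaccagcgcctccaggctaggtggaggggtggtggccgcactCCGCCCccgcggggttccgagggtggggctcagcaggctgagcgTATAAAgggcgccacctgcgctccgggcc
Slc22a4, chr11:54028105-54028354, minus strand: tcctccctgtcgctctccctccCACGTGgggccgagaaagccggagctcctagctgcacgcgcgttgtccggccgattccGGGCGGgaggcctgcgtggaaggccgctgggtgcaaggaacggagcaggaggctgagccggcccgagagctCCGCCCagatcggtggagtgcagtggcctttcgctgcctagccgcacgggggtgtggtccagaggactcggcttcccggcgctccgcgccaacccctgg
Cftr held 6 GC boxes, 3 of them overlapping, and no TATA box in this window. Aqp3 held a TATA box that begins 29 bases before the start and 1 GC box. The Slc22a4 window contained 1 E-box and 2 GC boxes. RefSeq windows of 300 bases (250 before to 50 after the start) matched 21 of the 30 genes. A listed gene was counted where any of its windows held the motif, whereas the share over all genes counts single windows. The shares below are thus in unlike units and are not directly comparable. A GC box on either strand was present in 16 of the 21 (76.2%), against 35.7% of the 32851 windows of all genes. The E-box was present in 6 (28.6%, against 7.15%) and the TATA box in 4 (19.0%, against 13.6%). The core of the cyclic AMP response element, TGACGT, matched in none of the 21 genes and in 7.51% of all windows. The AP-1 motif TGANTCA matched in Kcne3 alone (4.76% of the genes, against 7.81% of all windows). These matches are descriptions of letters and were not tested as binding sites.

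Among the apical anion channels and exchangers, Cftr differed widely between libraries. Cftr (chr6:18170687-18322768, GRCm38) measured 39.1, 38.5 and 1.02 CPM in untreated 01, 02 and 03 and 4.74, 4.72, 4.76 and 4.67 CPM in post-caerulein 01 to 04. The 4 post-caerulein libraries were nearly identical at 4.72 ± 0.0405 CPM (SD, n = 4). They held 169, 170, 226 and 222 reads, and the counting error of such numbers is wider than this SD. Untreated 01 and 02 lay far above these libraries and untreated 03 below them, so the groups overlapped. With the block, the log2 difference was -1.99 ± 0.90 (SE) and was not called (edgeR adjusted p = 0.314). Within the larger block the log2 difference was -3.03 ± 0.11, an 8.19-fold lower level after caerulein. In the smaller block it was 2.19 ± 0.20, with post-caerulein 04 4.55-fold above untreated 03. The difference between these effects, 5.22 ± 0.23, was called (edgeR adjusted p = 0.000964). An antisense gene, Gm15592, covers 1.72% of the exon bases of Cftr. In bulk RNA, fewer cells that express a gene and less RNA per cell cannot be told apart.

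Ano1, the chloride channel opened by calcium, was far more abundant than Cftr per transcript length (356 against 4.66 TPM). Its values were 440.4, 463 and 746 CPM (untreated) and 1008, 591, 597 and 831 CPM (post-caerulein). Post-caerulein 01 and 04 were highest and untreated 01 and 02 lowest, with untreated 03 inside the post-caerulein range. The block estimate of 0.54 ± 0.22 was not called (edgeR adjusted p = 0.277).

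The SLC26 exchangers were low by comparison. Slc26a6, the main chloride-bicarbonate exchanger paired with CFTR in duct cells, varied little, at 1.34, 1.12 and 0.734 CPM (untreated) and 0.954, 0.888, 0.843 and 1.14 CPM (post-caerulein), with a block estimate of -0.14 ± 0.28 (edgeR adjusted p = 0.851). Slc26a9, an epithelial chloride channel, measured 6.04, 5.36 and 0.200 CPM (untreated) and 8.47, 3.91, 4.26 and 0.883 CPM (post-caerulein). It was low in untreated 03 and post-caerulein 04 and at 3.91 CPM or more in the other 5 libraries, and it was not called (block estimate 0.39 ± 0.44, edgeR adjusted p = 0.724). Slc26a11, a sulphate and chloride transporter, was the most abundant of the SLC26 genes in the list at 12.6 TPM. It measured 9.31, 9.87 and 23.5 CPM (untreated) and 12.1, 14.4, 14.9 and 12.7 CPM (post-caerulein), so that untreated 03 lay over 2-fold above the other untreated libraries and post-caerulein 04 was not raised in this way. Its group difference was 0.53 ± 0.14 in the larger and -0.89 ± 0.21 in the smaller block, and the difference between these was called (-1.41 ± 0.25, edgeR adjusted p = 0.0374).

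The 5 basolateral loaders were all tested and none was called, nor did untreated 03 lie over 2-fold from both other untreated libraries for any of them. Slc4a4 encodes NBCe1, the sodium bicarbonate cotransporter that brings bicarbonate into the duct cell. Its level was 701, 605 and 609.6 CPM (untreated) and 761, 663, 740.4 and 519 CPM (post-caerulein), with means of 638 ± 54.3 (SD, n = 3) and 671 ± 109.7 CPM (SD, n = 4) and a block estimate of 0.03 ± 0.12 (edgeR adjusted p = 0.928). Slc4a11, a member of the bicarbonate transporter family that conducts protons, measured 266, 263 and 294 CPM (untreated) and 212, 275, 246 and 335 CPM (post-caerulein). Its block estimate was -0.03 ± 0.12 (edgeR adjusted p = 0.944).

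Slc4a2 encodes the basolateral chloride-bicarbonate exchanger AE2 and measured 85, 93.9 and 69.97 CPM (untreated) and 111, 60.6, 63.8 and 80.2 CPM (post-caerulein), with a block estimate of -0.08 ± 0.22 (edgeR adjusted p = 0.903). Of its exon bases, 14.9% lie under exons of Fastk on the other strand, and whether reads were counted by strand is not stated. Slc4a7, an electroneutral sodium bicarbonate cotransporter, measured 121, 103 and 99.1 CPM (untreated) and 192, 124, 139 and 94.7 CPM (post-caerulein) and had a block estimate of 0.29 ± 0.18 (edgeR adjusted p = 0.475). Slc12a2 encodes the sodium-potassium-chloride cotransporter NKCC1, which loads chloride. It measured 227, 227 and 212 CPM (untreated) and 409, 286, 285 and 201 CPM (post-caerulein), with post-caerulein 01 to 03 above the 3 untreated libraries and post-caerulein 04 below them (0.35 ± 0.18, edgeR adjusted p = 0.374).

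Carbonic anhydrases supply bicarbonate from carbon dioxide and water. Car2, the abundant cytosolic enzyme, was high in untreated 01 and 02 and low in untreated 03: 423, 376 and 54 CPM (untreated) and 287, 121, 136 and 65.7 CPM (post-caerulein). Post-caerulein 01 to 03 lay between these extremes and post-caerulein 04 was near untreated 03. The block estimate for Car2 was -0.74 ± 0.38 (edgeR adjusted p = 0.367). Car13, another cytosolic enzyme whose gene lies at chr3:14641727-14663002 on the same chromosome as Car2 (chr3:14886428-14900770), had the same order of untreated libraries: 30.8, 30.1 and 16 CPM (untreated) and 18.6, 19.1, 17.6 and 17.2 CPM (post-caerulein). All 4 post-caerulein libraries of Car13 lay between 17.2 and 19.1 CPM, close to untreated 03 and below untreated 01 and 02 (block estimate -0.48 ± 0.16, edgeR adjusted p = 0.184). Car12, a membrane-bound enzyme that faces the outside of the cell, measured 13, 10.9 and 22.8 CPM (untreated) and 9.34, 20.6, 19.9 and 12.8 CPM (post-caerulein), with overlapping groups and a block estimate of 0.09 ± 0.36 (edgeR adjusted p = 0.931).

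Of the aquaporins, 3 were tested and 2 fell in the block fit. Aqp5, an apical water channel of secretory epithelia (chr15:99590782-99594829), measured 283, 247 and 0.133 CPM in untreated 01, 02 and 03 and 7.24, 6.22, 7.73 and 0.189 CPM in post-caerulein 01 to 04. In the larger block the untreated libraries were thus 37.4-fold above the post-caerulein ones, while untreated 03 and post-caerulein 04 had only 6 and 9 reads. Aqp5 fell by the block fit (-5.00 ± 0.52, edgeR adjusted p = 0.0205). Its effect was -5.23 ± 0.13 in the larger and 0.49 ± 0.57 in the smaller block, and the difference was called (5.72 ± 0.65, edgeR adjusted p = 0.0130). The called fall was thus carried by the 5 libraries of the larger block.

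Aqp3, which passes water and glycerol and usually lies in the basolateral membrane (chr4:41092722-41098183), was less abundant. It measured 3.42, 1.94 and 0.445 CPM (untreated) and 0.449, 0.194, 0.253 and 0.126 CPM (post-caerulein). Untreated 01 and 02 were highest and untreated 03, at 0.445 CPM, lay just under post-caerulein 01, so the groups overlapped by 1 library. Aqp3 fell with the block (-2.87 ± 0.42, edgeR adjusted p = 0.0310), and it was lower in both blocks (-3.16 ± 0.43 and -1.80 ± 0.84). Its reads numbered 138, 92 and 20 (untreated) and 16, 7, 12 and 6 (post-caerulein). The difference in the smaller block thus rests on 20 and 6 reads.

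Aqp1, a water channel of ducts and of capillary endothelium, had values in the other direction: 0.297, 0.274 and 0.423 CPM (untreated) and 2.83, 1.39, 2.04 and 0.294 CPM (post-caerulein). Post-caerulein 01 to 03 were above all untreated libraries and post-caerulein 04 was at their level. The block estimate of 1.93 ± 0.70 was not called (edgeR adjusted p = 0.209). Endothelial markers (led by Pecam1, 0.122 TPM, and Cdh5, 0.0568 TPM), listed because Aqp1 is also an endothelial gene, summed to 0.173 to 0.534 CPM in untreated and 0.168 to 0.799 CPM in post-caerulein libraries. Gastric mucous markers (led by Tff1, 28.3 TPM, and Muc5ac, 6.05 TPM), listed because gastric glands also express Aqp5, summed to 67.8, 63.7 and 6.70 CPM in untreated 01, 02 and 03 and to 25.2, 9.68, 16.6 and 49.7 CPM in post-caerulein 01 to 04. Muc5ac, a secreted mucin, made up most of the untreated 01 and 02 sums and measured 66.8, 61.9 and 1.91 CPM (untreated) and 9.31, 3.75, 4.70 and 33.9 CPM (post-caerulein). It was low in untreated 03, as Aqp5 was, and higher in post-caerulein 04, where Aqp5 had 9 reads. The trefoil factor Tff1 went the other way, at 0.371, 0.485 and 3.07 CPM (untreated) and 11.5, 3.64, 7.50 and 12.2 CPM (post-caerulein), and rose in the block fit (3.37 ± 0.60, edgeR adjusted p = 0.0490). Its relative Tff2 also rose (4.33 ± 0.64, edgeR adjusted p = 0.0310), and Muc6 measured 0.470, 1.22 and 1.69 CPM (untreated) and 1.29, 1.39, 1.98 and 2.86 CPM (post-caerulein). Gkn1 and Gkn2 had no reads in any untreated library and were too low for a test. In post-caerulein 01 to 04 Gkn1 had 8, 3, 20 and 1 reads and Gkn2 had 10, 2, 10 and 0. Gkn3 was at 0 throughout. The part of these gastric markers in the Aqp5 result was not tested.

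Pump subunits and potassium channels set the driving force for secretion. Atp1b1 measured 1121, 1085 and 717 CPM (untreated) and 2338, 1272, 1464 and 725 CPM (post-caerulein), with post-caerulein 01 highest and untreated 03 and post-caerulein 04 lowest, and exons of Nme7 on the other strand cover 7.44% of its exon bases (0.44 ± 0.24, edgeR adjusted p = 0.395). Atp1b3, another beta subunit of the pump, varied little: 71.2, 73.7 and 83 CPM (untreated) and 99.5, 73.9, 74.5 and 96.3 CPM (post-caerulein) (0.20 ± 0.12, edgeR adjusted p = 0.463). Kcnn4 is the intermediate-conductance potassium channel opened by calcium. It measured 121, 112 and 93.4 CPM (untreated) and 148, 98.5, 103 and 80.3 CPM (post-caerulein) and its groups overlapped (-0.06 ± 0.15, edgeR adjusted p = 0.883).

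Kcne3 and Kcnq1 form a potassium channel that cyclic AMP keeps open in secretory epithelia. Kcne3, the regulatory subunit, measured 52.4, 61.2 and 25.2 CPM (untreated) and 139, 89.8, 95.1 and 43.1 CPM (post-caerulein). Post-caerulein 01 to 03 were above all untreated libraries, and post-caerulein 04 was above untreated 03 and below the other untreated libraries. The block estimate of 0.88 ± 0.17 narrowly missed the threshold (edgeR adjusted p = 0.0552), and the effect was of like size in both blocks (0.93 ± 0.20 and 0.78 ± 0.31, interaction -0.15 ± 0.36, edgeR adjusted p = 0.863). Kcne3 was called under 8 of 15 other settings.

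Kcnq1, the pore-forming subunit, did not share this pattern. It measured 144, 131 and 240.2 CPM (untreated) and 285, 263, 294 and 107 CPM (post-caerulein). Post-caerulein 04 lay far below the other post-caerulein libraries and below all untreated ones, and untreated 03 was above untreated 01 and 02. The effect was 1.03 ± 0.10 in the larger and -1.17 ± 0.15 in the smaller block, and the difference between them was called (-2.20 ± 0.18, edgeR adjusted p = 0.00830). Across both blocks the estimate of 0.40 ± 0.41 was not called (edgeR adjusted p = 0.687). Exons of the antisense transcript Kcnq1ot1 cover 3.99% of the exon bases of Kcnq1.

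The sodium-proton exchanger Slc9a2 (chr1:40680574-40769273), which moves acid out of epithelial cells, was low throughout and lower after caerulein. It measured 6.44, 7.0 and 0.934 CPM (untreated) and 1.04, 0.666, 0.695 and 0.378 CPM (post-caerulein). Untreated 01 and 02 were above every post-caerulein library, and untreated 03 was inside the post-caerulein range, below post-caerulein 01. Slc9a2 fell with the block (-2.64 ± 0.37, edgeR adjusted p = 0.0292), with lower values in both blocks (-3.07 ± 0.26 and -1.30 ± 0.47).

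Slc9a3r1 encodes NHERF1, the scaffold that ties CFTR and exchangers to the apical cytoskeleton. It measured 191, 187 and 72.2 CPM (untreated) and 225, 139, 150.04 and 99.7 CPM (post-caerulein), with untreated 03 over 2-fold below the other untreated libraries and post-caerulein 04 next (0.03 ± 0.20, edgeR adjusted p = 0.958). Scnn1a, the alpha subunit of the epithelial sodium channel, was high in untreated 03 and close to level in the other 6 libraries: 212, 229 and 391 CPM (untreated) and 218, 227, 246 and 205 CPM (post-caerulein). Its effect was 0.06 ± 0.10 in the larger and -0.93 ± 0.15 in the smaller block, and the difference was called (-0.99 ± 0.18, edgeR adjusted p = 0.0382). Scnn1b, the beta subunit of that channel, had no reads in untreated 01 and measured 0, 0.211 and 0.645 CPM (untreated) and 0.365, 1.05, 1.03 and 0.841 CPM (post-caerulein), with overlapping groups, and was not called (1.88 ± 0.84, edgeR adjusted p = 0.308).

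Slc22a4, which encodes the ergothioneine and organic cation transporter OCTN1 (chr11:53983123-54028090), was the 1 gene of the list whose groups did not overlap. It measured 52.3, 52.1 and 34.9 CPM in untreated 01, 02 and 03 and 6.79, 11.6, 12.9 and 17.5 CPM in post-caerulein 01 to 04. The lowest untreated library was untreated 03 and the highest post-caerulein library was post-caerulein 04, so the gap was smallest within the smaller block. Group means were 46.4 ± 10.02 (SD, n = 3) and 12.2 ± 4.39 CPM (SD, n = 4), a 3.82-fold difference. Slc22a4 fell with the block (-1.95 ± 0.30, edgeR adjusted p = 0.0364) but was not called without it (-1.93 ± 0.30, edgeR adjusted p = 0.142). Its log2 difference was -2.32 ± 0.24 in the larger and -1.0 ± 0.38 in the smaller block. Slc22a5 (chr11:53864542-53891660), which lies near Slc22a4 and encodes the carnitine transporter OCTN2, measured 16.1, 17.4 and 21.6 CPM (untreated) and 25.9, 21.2, 24.5 and 19.8 CPM (post-caerulein) and was not called (0.32 ± 0.15, edgeR adjusted p = 0.335).

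**Figure D2:**
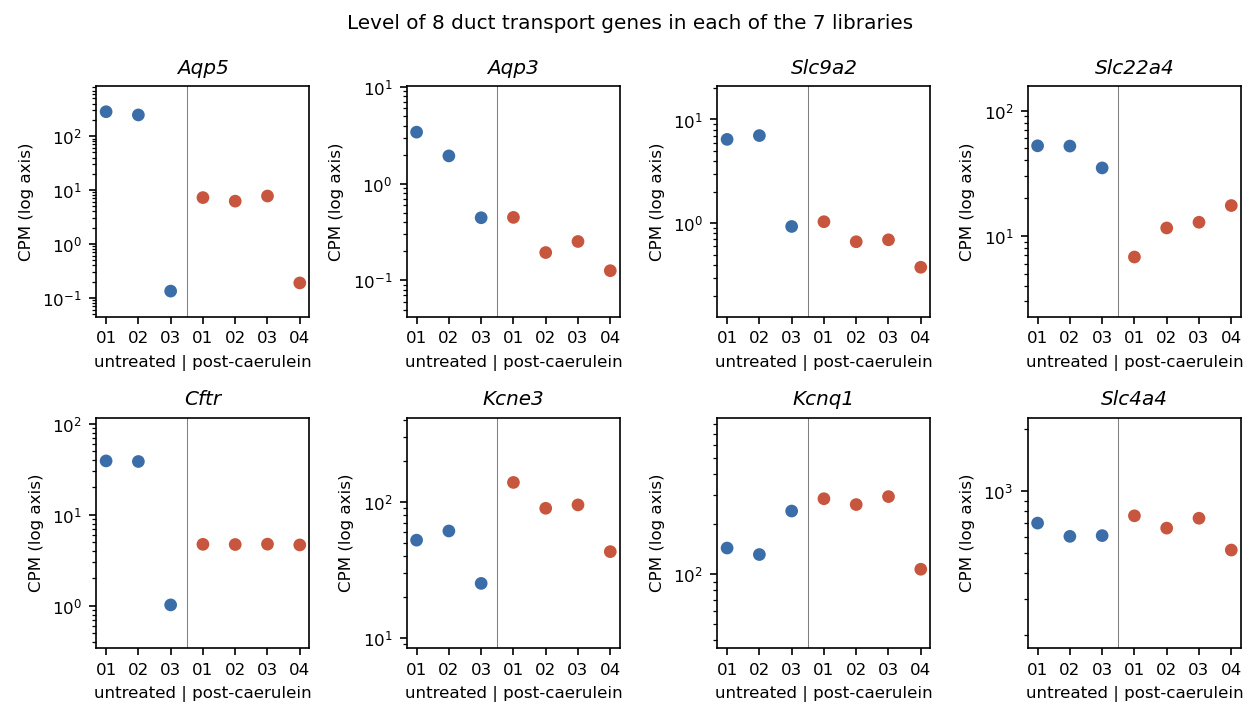
CPM (log axis) of 8 genes of the list in each of the 7 libraries, 1 panel per gene and 1 point per library, blue for untreated and red for post-caerulein. Cftr and Aqp5 are high in untreated 01 and 02 and low in untreated 03, Slc22a4 separates the groups, and Slc4a4 stays between 519 and 761 CPM.

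Counted over the list, 4 of the 26 tested genes were called in the block fit, all of them lower after caerulein: Aqp3, Aqp5, Slc9a2 and Slc22a4. Over all 16438 genes tested, 1.53% were called, 0.876% lower and 0.651% higher. The 4 called genes encode 2 water channels, 1 acid extruder and 1 organic cation transporter. None encodes an anion channel, bicarbonate loader or carbonic anhydrase. The median block estimate over the 26 genes was 0.03, against -0.00 over all genes. With the group alone, edgeR's quasi-likelihood test called 0 members and 0 genes (0% of the 16438). At an unadjusted p under 0.05, 6 members (1 higher, 5 lower) and 9.50% of all genes passed that test. With the group alone DESeq2 called 4 members and 509 genes, limma-voom 0 of either, and edgeR's likelihood ratio test 6 members and 385 genes. The block fit called no member when untreated 01 or 02 or post-caerulein 02 or 03 was left out, nor when the close pairs were summed; it called 3 (Aqp5, Slc22a4 and Kcne3, of 131 genes) without post-caerulein 01, 9 (of 2267 genes) without untreated 03 and 10 (of 2086 genes) without post-caerulein 04. Aqp5 and Slc22a4 were not called without the filter on low counts, and Aqp3 and Slc9a2 did not enter a stricter filter of 50 counts in 3 libraries. Groups did not overlap for 1 member, Slc22a4, and for 9.32% of all genes (4.65% lower).

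**Figure D3:**
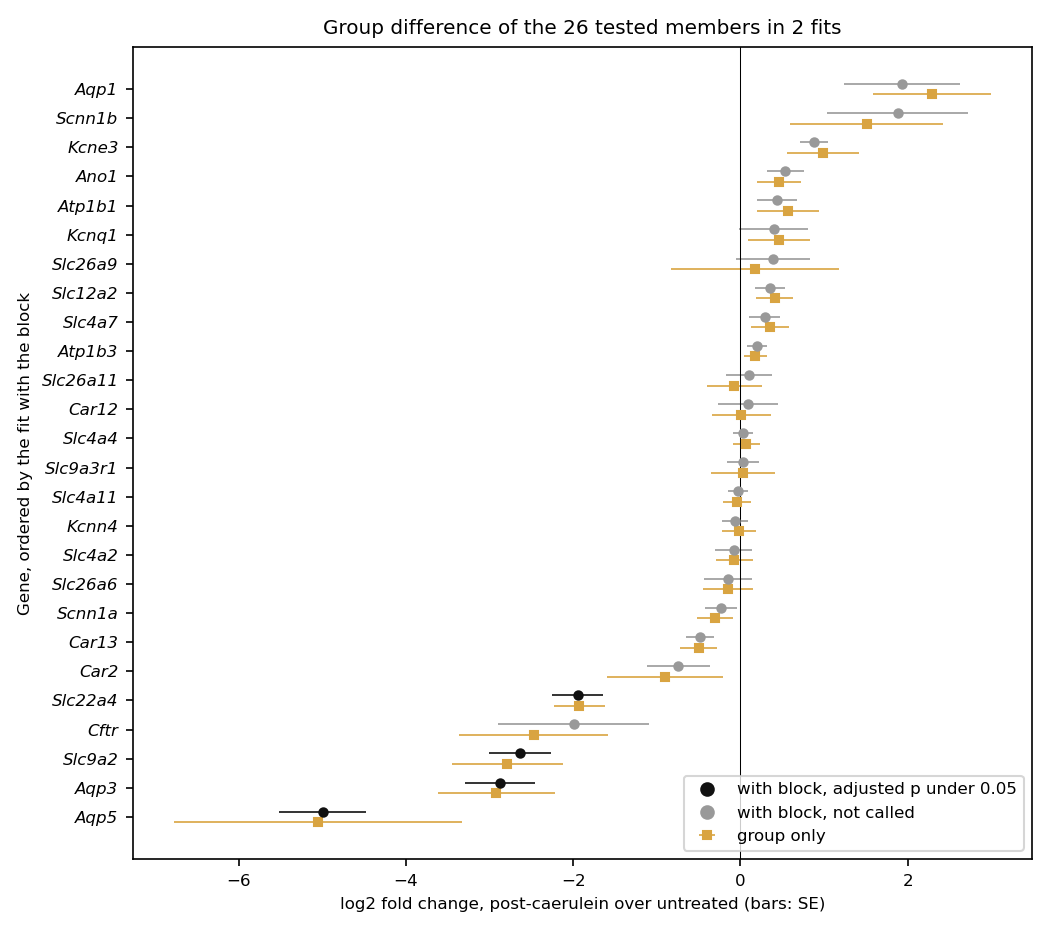
Log2 fold change (post-caerulein over untreated) of the 26 tested genes, with circles for the block fit, black where the adjusted p is under 0.05 and grey where not, orange squares for the group-only fit and bars for 1 SE. Aqp5 at -5.00, Aqp3 at -2.87, Slc9a2 at -2.64 and Slc22a4 at -1.95 are the genes called with the block.

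The libraries of the smaller block were often the lowest. Untreated 03 and post-caerulein 04 were both below the other 5 libraries for 11 of the 26 tested genes (42.3%): Cftr, Slc26a9, Slc4a7, Slc12a2, Car2, Car13, Aqp5, Atp1b1, Kcnn4, Kcne3 and Slc9a3r1. Over all genes the share was 18.2%. Both were above the other 5 for Slc4a11 alone, against 17.9% of all genes, which made 12 of 26 apart in either direction against 36.1%. Untreated 03 was over 2-fold below both other untreated libraries for 8 genes (Cftr, Slc26a9, Car2, Aqp3, Aqp5, Kcne3, Slc9a2 and Slc9a3r1) and over 2-fold above them for Slc26a11 and Scnn1b, against 9.23% and 9.59% of all genes (10 in either direction, against 18.8%). These counts are descriptions, and what sets the 2 libraries apart was not tested. The interaction of group and block was called for 5 of the 26 genes (19.2%), Cftr, Aqp5, Kcnq1, Scnn1a and Slc26a11, against 3.64% of all genes. The smaller block holds 1 library per group, so the spread of its difference is taken from the other libraries, and leaving out untreated 01 or 02 left no member and 1 gene called. Leaving out post-caerulein 01 gave 15 members among 4909 called genes, post-caerulein 02 gave 3 among 348 and post-caerulein 03 gave 3 among 244.

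**Figure D4:**
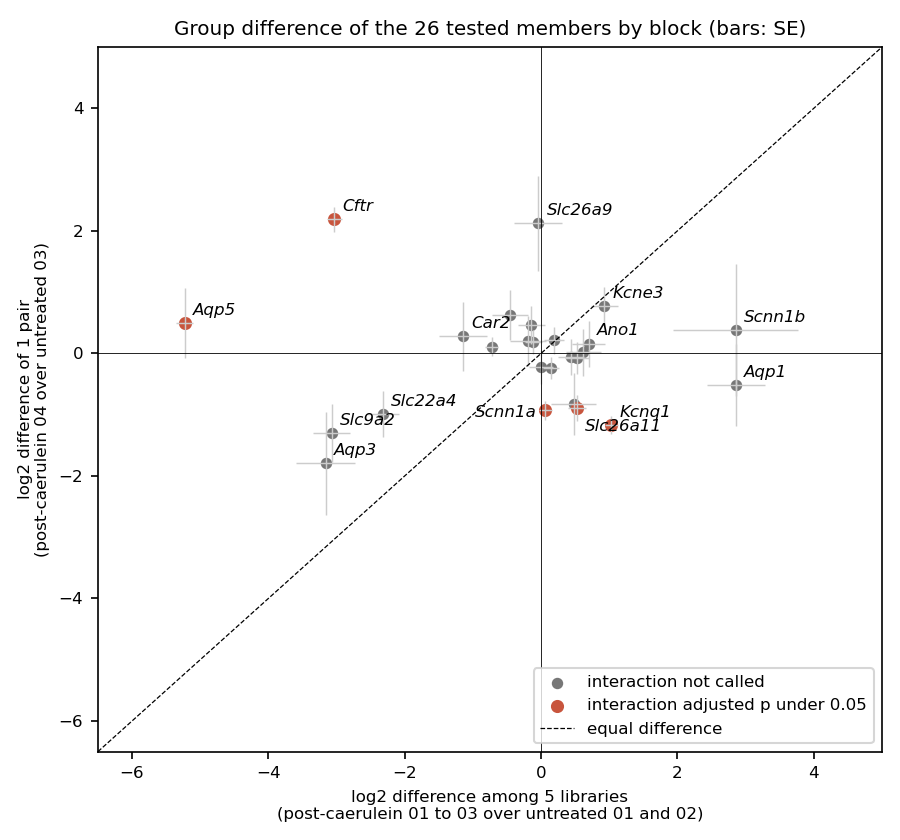
Log2 difference of post-caerulein over untreated in the larger block (x axis, 5 libraries) and in the smaller block (y axis, post-caerulein 04 over untreated 03) for the 26 tested genes, with bars for 1 SE and a dashed line of equal difference. Cftr lies at -3.03 and 2.19 and Aqp5 at -5.23 and 0.49, far from the line, while Slc22a4, Slc9a2 and Aqp3 are below 0 on both axes.

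Within the larger block alone, edgeR's quasi-likelihood test called 9 of the 26 members and 2247 of the 16276 genes tested. Cftr (-3.01, adjusted p = 5.57e-05), Aqp5 (-5.20, adjusted p = 1.22e-05), Aqp3 (-3.14, adjusted p = 0.00544), Slc9a2 (-3.05, adjusted p = 0.00100), Slc22a4 (-2.30, adjusted p = 0.00234) and Car13 (-0.70, adjusted p = 0.00514) fell in that edgeR fit. Aqp1 (2.88, adjusted p = 0.00678), Kcnq1 (1.05, adjusted p = 0.00123) and Kcne3 (0.95, adjusted p = 0.0252) rose in it. These 5 libraries include both close pairs, so the spread within a group is estimated mostly from pairs that differ little.

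The authors' deposited table lists 22 of the 30 members and calls 3 of them at a false discovery rate under 0.05, against 7.88% of its 12983 genes (3.39% lower and 4.49% higher). In the authors' deposited table Slc22a4 was lower (-1.93, false discovery rate 1.19e-10). Slc9a2 was lower in the authors' deposited table as well (-2.62, false discovery rate 4.71e-09). The 1 member called higher in the authors' deposited table was Kcne3 (0.89, false discovery rate 4.05e-05). Cftr lay just outside the threshold of the authors' deposited table (-1.97, false discovery rate 0.0519). Of the 8 members that the authors' deposited table does not list, Aqp1, Aqp3, Aqp5 and Scnn1b were tested here, so both aquaporins that fell in the block fit were outside the authors' deposited table.

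Other genes of the secretory pathway were examined as 9 lists of 172 genes, of which 114 were tested. With the block 4 were called (3.51%, against 1.53% of all genes), 2 in each direction. With the group alone edgeR's quasi-likelihood test called 0, and 26 (15 higher, 11 lower) had an unadjusted p under 0.05, against 9.50% of all genes; no other tool was counted for these lists. Pde4d, a phosphodiesterase that breaks down cyclic AMP, measured 94, 94.7 and 51.4 CPM (untreated) and 48.3, 48.2, 44.6 and 35.5 CPM (post-caerulein) and fell (-0.87 ± 0.11, edgeR adjusted p = 0.0231). Adcy1, an adenylate cyclase that makes cyclic AMP, measured 0.446, 0.316 and 1.09 CPM (untreated) and 1.74, 1.36, 1.20 and 2.65 CPM (post-caerulein) and rose (1.69 ± 0.29, edgeR adjusted p = 0.0442). Both were among 32 tested genes of Gs and cyclic AMP signalling. The groups did not overlap for either gene. The Pde4d call was lost in 6 of 16 other settings. These left out untreated 01 or 02 or post-caerulein 02 or 03, summed the close pairs or left out the block. The Adcy1 call was lost in 8 of 16, which were the same settings, post-caerulein 01 left out and the stricter filter.

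Slc26a4, which encodes the anion exchanger pendrin, measured 0.569, 0.506 and 0.289 CPM (untreated) and 0.140, 0.111, 0.0421 and 0.0210 CPM (post-caerulein) and fell (-2.67 ± 0.46, edgeR adjusted p = 0.0439). It was the 1 gene called among 6 tested other SLC4 and SLC26 transporters. Kcnj15, an inwardly rectifying potassium channel, measured 0.0248, 0.0633 and 0.156 CPM (untreated) and 0.617, 0.472, 0.506 and 2.99 CPM (post-caerulein) and rose (3.86 ± 0.39, edgeR adjusted p = 0.0184), as the 1 gene called among 11 tested other pump subunits and potassium channels. Both genes were at a few reads in 1 group, with 5, 4, 2 and 1 reads of Slc26a4 in the post-caerulein libraries and 1, 3 and 7 reads of Kcnj15 in the untreated ones, so their fold changes are imprecise. The Slc26a4 call was lost in 8 of 14 other settings, among them each of untreated 01 and 02 and post-caerulein 01 to 03 left out and the close pairs summed. The Kcnj15 call was lost in 5 of 15, with untreated 01, untreated 02 or post-caerulein 03 left out, with the close pairs summed and without the block.

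Other abundant genes of these lists were not called. Ezr, which encodes the membrane-cytoskeleton linker ezrin that binds NHERF1, averaged 1724 TPM (0.14 ± 0.16, edgeR adjusted p = 0.724), and its relative Msn averaged 277 TPM (-0.00 ± 0.15, edgeR adjusted p = 0.993). Car9, a hypoxia-responsive membrane carbonic anhydrase, averaged 364 TPM, against 289.7 TPM for Car2 (0.28 ± 0.13, edgeR adjusted p = 0.317). The mitochondrial Car5b averaged 4.92 TPM and measured 13.5, 10.8 and 8.92 CPM (untreated) and 1.82, 5.13, 4.47 and 3.05 CPM (post-caerulein), with groups that did not overlap (-1.64 ± 0.33, edgeR adjusted p = 0.0628).

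Sgk1, a kinase that raises surface levels of the epithelial sodium channel, averaged 368 TPM (1.05 ± 0.33, edgeR adjusted p = 0.164), and Nedd4l, the ubiquitin ligase it restrains, averaged 73.1 TPM (0.15 ± 0.13, edgeR adjusted p = 0.618). Kcnk1, a background potassium channel, averaged 214 TPM (-0.08 ± 0.12, edgeR adjusted p = 0.799). The scramblase and channel Ano6 averaged 113 TPM (0.32 ± 0.13, edgeR adjusted p = 0.266), and the volume-regulated channel subunit Lrrc8d averaged 101 TPM (0.36 ± 0.12, edgeR adjusted p = 0.187). Of the subunits of protein kinase A, the target of cyclic AMP, the most abundant were Prkar1a at 153 TPM (0.22 ± 0.10, edgeR adjusted p = 0.319) and Prkaca at 100.3 TPM (0.10 ± 0.13, edgeR adjusted p = 0.767). The sulphate transporter Slc26a2 averaged 23.6 TPM (-0.14 ± 0.11, edgeR adjusted p = 0.605), and Slc26a10 averaged 3.0 TPM (0.47 ± 0.18, edgeR adjusted p = 0.227). Aqp11 averaged 3.13 TPM (0.01 ± 0.21, edgeR adjusted p = 0.989) and Aqp9 0.584 TPM (0.88 ± 0.30, edgeR adjusted p = 0.185), both under the mean of Aqp5. Slc22a15, of the same family as Slc22a4, averaged 5.08 TPM (0.92 ± 0.21, edgeR adjusted p = 0.0793). The median block estimate over the 114 genes was 0.04, against -0.00 over all genes.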

How the data were processed

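The authors' count table gives unnormalised read counts for each gene and library beside exon lengths, per the file headers. Reads were assigned with featureCounts (version 0.6.1) on GRCm38, per the submitters' processing notes. Neither aligner nor strandedness is stated there. The authors' deposited edgeR table (version 3.2.2, per the submitters' processing notes) holds, per the file headers, log2 fold changes, a likelihood ratio score, p-values and false discovery rates and does not state its design. A refit with the block described above matched its log2 fold changes to within 3.16e-08 and all 1023 calls, against 320 calls without the block.

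Genes were matched by identifier to GENCODE symbols (54409 of 54446). Genes passing filterByExpr (count 10, total 15) entered edgeR 4.0.16 with TMM scaling, and its robust quasi-likelihood test, two-sided, was adjusted over the 16438 genes kept. Standard errors were derived from that test, as the absolute log2 fold change divided by the square root of its F statistic. CPM use TMM-scaled library sizes, and TPM use the deposited exon lengths. The procedure was tested on simulated data. Total counts of 34783738 to 46744497 put 3 counts at 0.0631 to 0.0841 CPM, a limit that covers counting error only. Alternatives used DESeq2 1.42.0, limma 3.58.1, other scalings, filters and library sets, in R 4.3.3 with figures from matplotlib 3.10.9. Members, lists and tests, including the block, were chosen with earlier results of these data known. Named were all 30 members and, of each other list, genes called in the block fit and the 2 of highest mean TPM (also of each marker list). A gene that this rule takes is not reported here. Replicate numbers did not pair the libraries (same-number correlations 0.372, 0.141 and -0.210). Promoter sequences are from RefSeq on GRCm38.p6. No protein sequence was used here.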

Additional observations from a re-analysis of the deposited data

Results flagged for a closer look

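Kcnq1 in post-caerulein 04 lay apart from the other post-caerulein libraries at 107 CPM, against 263 to 294 CPM. It was the 1 gene of the 26 tested whose highest or lowest library had a gap to its nearest neighbour above Dixon's critical value for 4 libraries, and chance flags about 1 in 20 such groups.

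For 5 genes the group difference itself differed between the blocks by a test of the interaction in edgeR. The difference of effects (smaller block minus larger block, log2) was 5.22 for Cftr, 5.72 for Aqp5, -1.41 for Slc26a11, -2.20 for Kcnq1 and -0.99 for Scnn1a. For Cftr, Kcnq1 and Slc26a11 the 2 blocks had opposite signs beyond their standard errors, although the smaller block holds 1 library per group and takes its spread from the other libraries. For Aqp5 the smaller block rests on 6 and 9 reads, and for Scnn1a the larger block showed almost no difference.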

How the results depend on the processing

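No alternative reversed the direction of a called member or of a called pathway gene named by the rule above. Directions of other called genes were not compared. Genes called with the group alone (0) numbered 23 without a filter, 385 by the likelihood ratio test, 509 by DESeq2, 2247 in the larger block alone and 0 to 1149 with each library left out; members (0) numbered 6, 4 and 9 by the last 3 of these fits and 0 to 6 with each library left out. With the block, genes called (251) became 602 without a filter, 138 with a stricter one (50 counts in 3 libraries), 1236 by the likelihood ratio test, 1389 by DESeq2, 0 with the close pairs summed and 0 to 2267 with each library left out. Members (4) became 2, 7 and 0 under the stricter filter, the likelihood ratio test and the summed pairs, and 0 to 10 with each library left out; DESeq2 called 6. Without untreated 03 or post-caerulein 04 the block term absorbs the remaining library. Other pathway genes (4) numbered 11, 1, 22, 19 and 0 in these settings and 0 to 32 with each library left out. The replicate number as a block called 1184 genes, 8 members and 18 other pathway genes, but the numbers did not pair the libraries. For the interaction, genes (599) became 1265 without a filter, 1568 by DESeq2 and 1 to 4909 with a library left out; members (5) became 7 by DESeq2 and 0 to 15. Interaction fits by DESeq2 and with libraries left out were chosen after seeing the data. Of the 22 members not called with the block, 7 were called under at least 1 alternative. The causes of these shifts were not tested. Depth limits values such as Slc26a4 after caerulein, at 1 to 5 reads.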

Other observations

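Beyond the 30 genes, the interaction of group and block was called for 6 of the 114 tested pathway genes (5.26%, against 3.64% of all genes), of which 5 are given here, named after their values were seen. Prkacb, a catalytic subunit of protein kinase A, differed by 1.25 ± 0.11 in the larger and -0.64 ± 0.17 in the smaller block (edgeR adjusted p of the difference = 0.0103). Atp4a, the alpha subunit of the gastric proton pump, differed by 1.58 ± 0.13 and -1.18 ± 0.19 (edgeR adjusted p = 0.00830). The kinase Sgk1 was higher in the larger block and near no difference in the smaller one, at 1.54 ± 0.15 and -0.14 ± 0.23 (edgeR adjusted p = 0.0304). Adcy8, an adenylate cyclase, differed by -0.83 ± 0.23 and 1.98 ± 0.41 (edgeR adjusted p = 0.0321), and the chloride-proton exchanger Clcn5 by -0.90 ± 0.11 and 0.17 ± 0.17 (edgeR adjusted p = 0.0411).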
